A study of Mus musculus with 9 samples.

Results

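Amino acid transporters of the Slc1a, Slc3a, Slc7a, Slc36a, Slc38a and Slc43a families were examined in the tibialis anterior muscle of mice given dexamethasone (DEX), a synthetic glucocorticoid, with or without a turmeric extract (TE) in the diet. The genes were chosen by name: their symbol begins with one of these family names, and the array annotation gives their probe set exactly 1 symbol. Each gene was represented by the probe set with the highest mean log2 signal over the 9 arrays. This gave 42 of 18193 genes, with 89 probe sets between them. Of these, 40 code for transporters or their subunits, and 2, Slc36a1os and Slc7a6os, are separate genes named for lying on the opposite strand, which the naming rule also took. The families held 16 genes of Slc7a, 9 of Slc38a, 7 of Slc1a, 5 of Slc36a, 3 of Slc43a and 2 of Slc3a.

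Each of the 3 groups had 3 arrays of male C57BL/6J mice aged 15 weeks, 1 array per mouse. Control mice were injected with saline. DEX mice had 5 mg/kg DEX injected into the peritoneum each day for 7 d, and DEX + TE mice had these injections while eating a diet with 2% TE. All groups ate an AIN93-based diet, which in the DEX + TE group held the extract from 5 d before the first injection according to the methods, whereas the sample labels place turmeric after DEX. There was no group given TE without DEX, and the mice were picked for a body and muscle weight near the group average, so the spread between arrays may be narrower than that between mice at large.

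These families divide the work of moving amino acids. Slc38a and Slc36a proteins bring small neutral amino acids and glutamine into the cell, or out of the lysosome, with sodium or protons. Slc7a proteins mostly exchange one amino acid for another and need a heavy chain of the Slc3a family to reach the membrane, except the cationic transporters, which carry arginine and lysine alone. Slc1a proteins carry glutamate and neutral amino acids, and Slc43a proteins let large neutral amino acids diffuse down their gradient. In muscle, uptake of leucine and glutamine feeds protein synthesis through the kinase complex mTORC1, and efflux of glutamine and alanine delivers nitrogen to liver and gut during the wasting that glucocorticoids cause.

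None of the transporter genes passed the test in any of the 3 comparisons. Limma, fitted across 29269 probe sets, called 0 of 36 tested members at an adjusted p under 0.05 and a log2 fold change of 0.6 or more in either direction, and Rank Product, the test named in the methods, also called 0 of 36. The Rank Product count depends on the choice of probe set. By the highest mean on the linear scale, 1 member, Slc1a2, would be represented by another probe set. Rank Product called that probe set as lower in both comparisons of DEX + TE, and limma did not call it. The signal is the linear intensity of a probe set, scaled to the same trimmed mean on every array. A probe set was tested where the mean log2 signal of at least 1 group reached that of a signal of 50, and 36 of the 42 members did so. In 27 of these all 3 groups reached it, and in the other 9 only 1 or 2 groups did, so that those 9 could enter the test through the group in which they were high. The 6 genes not tested were Slc1a6, Slc38a5, Slc7a12, Slc7a14, Slc7a15 and Slc36a1os, whose group mean signals lay between 3.07 and 39.04. Across the members, log2 fold changes ran from -1.29 to 2.12 for DEX against control and from -1.70 to 1.00 for DEX + TE against DEX.

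**Figure D1:**
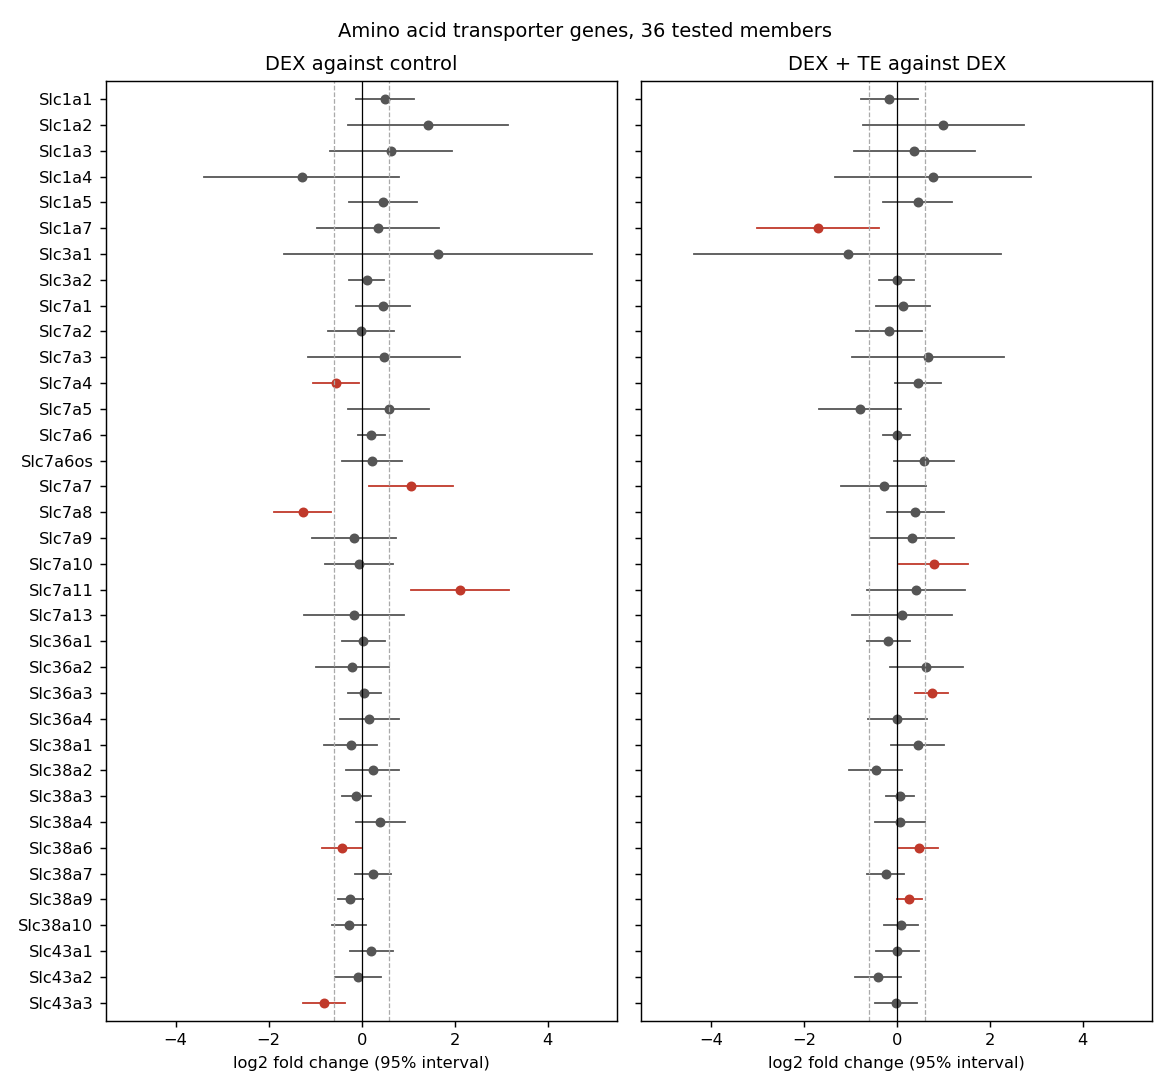
Log2 fold change of each of the 36 tested genes (points) with its 95% interval (lines) for DEX against control and for DEX + TE against DEX, ordered by family. Red marks an unadjusted p under 0.05 in limma, dashed lines mark the threshold of 0.6 in either direction, and no gene passed after adjustment. The genes farthest from 0 with intervals that exclude it are Slc7a8 and Slc43a3 on the lower side and Slc7a11 on the higher side of DEX against control. Slc7a11 was below 50 on all control arrays.

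The arrays carried the profile of muscle. All 8 markers of skeletal muscle fibers had a signal of 50 or more on all 9 arrays. Their summed signal was 445400 to 622000 on control, 339600 to 436000 on DEX and 424000 to 454100 on DEX + TE arrays. By value all 8 were lower with DEX than in control (median log2 fold change -0.45, none past the test) and all 8 higher with DEX + TE than with DEX (median 0.18, none past the test). The median signal over all probe sets was 76.0 to 86.17 on the control arrays, 71.27 to 77.65 on the DEX arrays and at least 84.71 with DEX + TE, while 58.5% to 65.2% of probe sets reached a signal of 50. Marker sums of some other cell types also differed between the groups. The summed signal of 7 fibroblast markers was 26490 to 39860 on control, 16720 to 19590 on DEX and 24190 to 26550 on DEX + TE arrays, and all 7 were lower in the DEX group, 3 of them past the test. The 4 adipocyte markers on the array summed to 496.9 to 701.7, 1166 to 1423 and 1825 to 2773 in the same order, and the 4 neutrophil markers to 135.7 to 236.9, 320.3 to 692.0 and 306.7 to 672.1. For DEX against control, all 4 adipocyte markers were higher by value, none past the test. Of the neutrophil markers, 3 were higher and 1 lower, and none of the 3 tested passed. Only 1 neutrophil marker was at 50 or more on all arrays. The 8 leukocyte markers on the array, of which Cd3e was below 50 on all arrays, summed to 1777 to 2512, 1445 to 2139 and 2229 to 2385. With DEX against control, 2 of them were higher and 6 lower by value. The 7 endothelial markers, all at 50 or more on every array, summed to 3715 to 4452, 3848 to 4432 and 3616 to 3801, with a median log2 fold change of 0.01 for DEX against control. The part of these cell types and of the fibers in the values of the transporters was not tested, and in whole muscle fewer cells of a type and less RNA per cell cannot be told apart.

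The comparison of DEX with control asks which transporters differ after a week of glucocorticoid. Slc7a8, the light chain LAT2 that exchanges neutral amino acids in complex with Slc3a2, had a lower signal in the DEX group, by a factor of 2.40. Slc43a3, known as a carrier of purine nucleobases more than of amino acids, was lower by a factor of 1.74. Slc7a11, the cystine and glutamate exchanger xCT whose cystine feeds glutathione synthesis, lay higher. Slc7a8 and Slc43a3 each had an unadjusted p under 0.05 and groups that did not overlap. Slc7a11 also did, but its control arrays were all under 50 and it entered the test through the DEX + TE group. Its separation from control therefore does not count beside theirs. None passed after adjustment over all probe sets.

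The signal of Slc7a8 was 240.1, 267.1 and 266.7 on the control arrays, 133.5, 91.9 and 100.3 on the DEX arrays, and 92.91, 171.6 and 174.1 on the DEX + TE arrays. All control arrays lay above all others, and the DEX + TE arrays overlapped with the DEX arrays, 1 of them at the level of the lowest DEX arrays. DEX against control gave a log2 fold change of -1.27 (SE 0.26, 95% interval -1.88 to -0.65), with an adjusted p of 0.100. A mean-variance trend in limma took it past the threshold, with an adjusted p of 0.0268, and over all settings tried the adjusted p ran from 0.0268 to 0.239 while the log2 fold change stayed between -1.42 and -1.15. Against control, the DEX + TE group had a log2 fold change of -0.87 (SE 0.26, adjusted p = 0.228), and against DEX 0.39 (95% interval -0.22 to 1.01, adjusted p = 0.764).

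The signal of Slc43a3 was 381.2, 433.0 and 606.4 on the control arrays, 269.8, 254.2 and 276.4 on the DEX arrays, and 238.2, 246.4 and 315.6 on the DEX + TE arrays. The control arrays stood above the arrays of both DEX-injected groups, which overlapped with each other. It had a log2 fold change of -0.80 (SE 0.19, adjusted p = 0.134) for DEX against control and -0.81 (adjusted p = 0.152) for DEX + TE against control, both past the threshold with a mean-variance trend, at adjusted p of 0.0381 and 0.0455. Between the DEX + TE and DEX groups it was -0.01, with a 95% interval of -0.46 to 0.44.

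The signal of Slc7a11 was 6.454, 14.75 and 12.12 on the control arrays, 52.43, 64.84 and 27.81 on the DEX arrays, and 50.65, 95.14 and 46.06 on the DEX + TE arrays. Every control array lay below a signal of 50, so the control level is known only as below that, and the gene entered the test through the DEX + TE group. The fitted log2 fold change was 2.12 (SE 0.45, adjusted p = 0.105) for DEX against control, where the DEX mean on the log2 scale was itself under 50 and no fold is given. For DEX + TE against control it was 2.53 (SE 0.45, adjusted p = 0.0837), which, counted from a signal of 50, is at least 1.21-fold higher. The neutrophil and adipocyte marker sums lay above those of the control arrays in the same groups, and their part in this value was not tested. The other probe set of Slc7a11 was under 50 on all 9 arrays and was not tested.

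A pair of windows is shown as examples, that of Slc7a11, which holds both motifs searched, and that of Slc7a8, which holds neither. Each runs from 250 bases before to 50 bases after the start of the gene in the RefSeq annotation of GRCm38.p6, and both genes lie on the minus strand. Slc7a11 is at chr3:50443564-50443863 and Slc7a8 at chr14:54781837-54782136. Capitals mark the motif searched for amino acid response elements, TGATGNAA or its reverse complement TTNCATCA, and the glucocorticoid receptor half-site AGAACA or its reverse complement TGTTCT.
Slc7a11: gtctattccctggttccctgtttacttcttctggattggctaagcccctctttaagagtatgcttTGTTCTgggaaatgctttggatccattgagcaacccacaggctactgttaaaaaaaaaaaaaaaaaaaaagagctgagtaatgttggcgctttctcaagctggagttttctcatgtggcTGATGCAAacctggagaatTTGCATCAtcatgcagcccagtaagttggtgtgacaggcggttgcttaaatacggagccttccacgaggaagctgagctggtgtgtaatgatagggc
Slc7a8: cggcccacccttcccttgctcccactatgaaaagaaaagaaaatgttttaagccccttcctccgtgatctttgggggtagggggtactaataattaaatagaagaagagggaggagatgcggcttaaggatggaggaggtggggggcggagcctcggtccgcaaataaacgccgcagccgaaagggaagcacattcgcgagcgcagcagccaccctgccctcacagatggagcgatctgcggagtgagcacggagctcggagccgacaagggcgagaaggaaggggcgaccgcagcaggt
The Slc7a11 window holds the first motif 66 bases before the start site and, on the other strand, 47 bases before it, and the half-site 185 bases before it. Of 32851 windows of this length, 3.97% hold the first motif and 19.0% the half-site. Among the members, 31 have 42 windows in the table, of which 4 hold the first motif, in Slc1a4, Slc7a11 and Slc7a7, and 10 hold the half-site, in Slc1a3, Slc36a1, Slc38a4, Slc7a1, Slc7a11 and Slc7a7. A match in these letters is a description of the sequence and not a bound site.

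**Figure D2:**
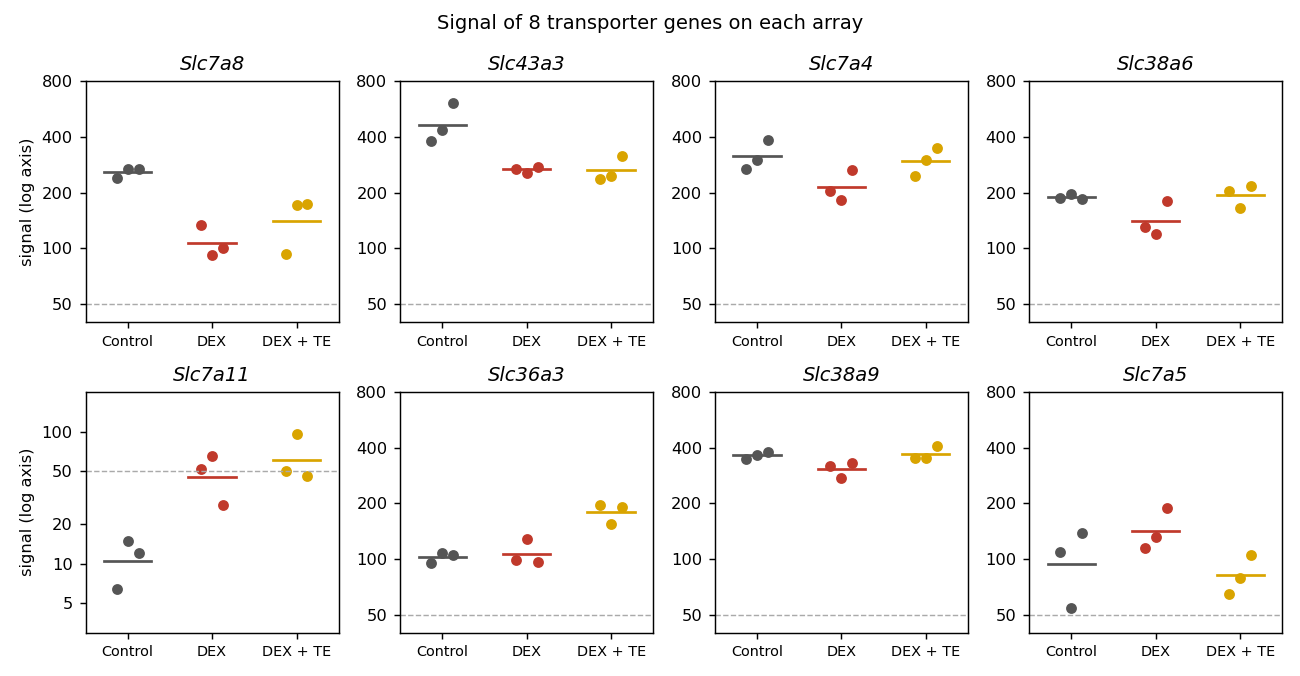
Signal of 8 genes on each array (points, log axis) in the control, DEX and DEX + TE groups, with the geometric mean of each group as a bar and the signal of 50 as a dashed line. The vertical range for Slc7a11 is lower than for the others. The control arrays of Slc7a8 and Slc43a3 stand above both other groups, and the DEX + TE arrays of Slc36a3, at 155.4 to 194.6, stand above both other groups.

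Among all 36 members, 4 lay lower and 2 lay higher in the DEX group at an unadjusted p under 0.05. Both higher ones, Slc7a11 and Slc7a7, entered the test through the DEX-injected groups alone, and among the 26 members at 50 or more on all arrays 4 were lower and 0 higher at that p. Over all probe sets tested, 8.33% were lower and 6.1% higher at that p, against 11.1% and 5.56% of the members. Limma called 0.502% of all probe sets and Rank Product 0.325%. The groups did not overlap in 6 members that were lower (16.7%) and 2 that were higher (5.56%), where the shares of all probe sets were 12.1% and 9.07%. Among the 26 members at 50 or more on all arrays, this held for 6 lower and 1 higher. The median log2 fold change of the members was 0.14, and that of all probe sets -0.03. By value, 21 members (58.3%) were higher and 15 lower, where 46.8% of all probe sets were higher. The shares by p and by overlap lie near those of all probe sets, and the share by value lies above. The list itself was not tested, and nothing is read from these shares about the families.

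The other members below the control without overlap were a cationic-family protein, a lysosomal sensor and a pair of less studied Slc38a proteins. Slc7a4, grouped by sequence with the cationic amino acid transporters, had a signal of 268.0, 299.1 and 385.6 on the control arrays, 203.6, 183.4 and 265.6 on the DEX arrays, and 246.4, 301.1 and 349.2 on the DEX + TE arrays. The highest DEX array lay just below the lowest control array, and the DEX + TE arrays overlapped with both groups. Its log2 fold change was -0.55 (SE 0.21, adjusted p = 0.299) for DEX against control and 0.46 (adjusted p = 0.661) for DEX + TE against DEX.

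Slc38a6 had a signal of 187.6, 195.7 and 185.8 on the control arrays, 130.1, 119.0 and 179.4 on the DEX arrays, and 203.8, 165.7 and 218.4 on the DEX + TE arrays. All DEX arrays were below the control arrays, 1 of them narrowly. Its fold change on the log2 scale was -0.43 (SE 0.18, adjusted p = 0.329) for DEX against control and 0.47 (adjusted p = 0.599) for DEX + TE against DEX. Averaged with a further probe set that was not tested, since no group mean reached 50, the value for DEX against control turned to 0.23 (adjusted p = 0.876).

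Slc38a9, a lysosomal transporter that signals arginine supply to mTORC1, had a signal of 346.0, 366.6 and 379.1 on the control arrays, 317.4, 274.6 and 331.7 on the DEX arrays, and 352.8, 353.1 and 407.1 on the DEX + TE arrays. The DEX arrays were below all arrays of both other groups. The differences were small, with a log2 fold change of -0.24 (SE 0.11, adjusted p = 0.386) for DEX against control and 0.27 (SE 0.11, adjusted p = 0.638) for DEX + TE against DEX. Slc38a9 has 7 probe sets on the array, whose log2 fold change for DEX against control ran from -2.63 to 0.28.

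Slc38a10 had a signal of 2957, 3090 and 3180 on the control arrays, 1998, 2891 and 2867 on the DEX arrays, and 2678, 2585 and 2841 on the DEX + TE arrays. The arrays of both DEX-injected groups lay below the control arrays, most of them narrowly. The log2 fold change of DEX against control was -0.27 (adjusted p = 0.475). On the higher side, Slc7a6, the light chain y+LAT2 that exchanges arginine for neutral amino acids, was at 543.2, 487.9 and 493.5 on the control arrays, 603.9, 614.3 and 549.5 on the DEX arrays, and 541.1, 687.1 and 550.3 on the DEX + TE arrays. Its groups came close at 543.2 and 549.5, and the log2 fold change was 0.21 (SE 0.12, adjusted p = 0.482). Its second tested probe set, also at 50 or more on all arrays, went the other way, with log2 fold changes of -0.22 for DEX and -0.31 for DEX + TE against control, and the average of both gave 0.00 for DEX against control.

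The sodium-coupled carriers of glutamine and alanine did not pass the test. Slc38a2 (SNAT2), which takes up small neutral amino acids and is known for its response to amino acid shortage, had a signal of 7677, 8715 and 8040 on the control arrays, 7688, 14570 and 7876 on the DEX arrays, and 6517, 7695 and 6847 on the DEX + TE arrays. A single DEX array, replicate 2, stood apart. DEX against control had a log2 fold change of 0.24 (adjusted p = 0.698) with that array and -0.06 (adjusted p = 0.881) without it.

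Slc38a4 (SNAT4) was at 4243, 5440 and 5520 on the control arrays, 8461, 5495 and 6329 on the DEX arrays, and 8068, 7875 and 5340 on the DEX + TE arrays, with a log2 fold change of 0.40 (95% interval -0.13 to 0.94, adjusted p = 0.468) for DEX against control. The groups overlapped through 1 array of each injected group. Slc38a3 (SNAT3), a glutamine carrier that works in both directions, was at 894.4, 945.6 and 1137 on the control arrays, 942.4, 969.3 and 839.6 on the DEX arrays, and 924.1, 1069 and 890.5 on the DEX + TE arrays. Its 3 groups overlapped, and the 95% interval of this probe set for DEX against control, -0.42 to 0.20, leaves out a change as large as the threshold of 0.6. The other tested probe set of Slc38a3 had a log2 fold change of 0.63 (SE 0.96, adjusted p = 0.803). Over all settings the value of Slc38a3 ran from -0.18 to 0.26.

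The leucine exchanger Slc7a5 (LAT1) had a signal of 109.8, 54.66 and 138.7 on the control arrays, 114.6, 130.8 and 188.2 on the DEX arrays, and 64.95, 79.16 and 105.8 on the DEX + TE arrays. The control arrays overlapped with both other groups, while every DEX + TE array was below every DEX array. LAT1 had a log2 fold change of 0.59 (SE 0.37, adjusted p = 0.520) for DEX against control and -0.79 (SE 0.37, adjusted p = 0.678) for DEX + TE against DEX. Slc3a2, the heavy chain CD98 that Slc7a5, Slc7a6, Slc7a7, Slc7a8, Slc7a10 and Slc7a11 pair with, was at 624.7, 633.7 and 861.0 on the control arrays, 835.1, 643.5 and 792.3 on the DEX arrays, and 770.8, 733.4 and 746.8 on the DEX + TE arrays. Its log2 fold change for DEX against control was 0.11, with a 95% interval of -0.27 to 0.48.

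Among the cationic transporters, Slc7a1 (CAT1), the widespread arginine and lysine carrier, had a signal of 180.6, 201.8 and 253.4 on the control arrays, 202.1, 379.1 and 318.7 on the DEX arrays, and 290.9, 310.2 and 356.0 on the DEX + TE arrays. The DEX + TE arrays lay above the control arrays and overlapped with the DEX arrays. On the log2 scale the fold change was 0.47 (adjusted p = 0.437) for DEX against control and 0.60 (adjusted p = 0.345) for DEX + TE against control. A second probe set of Slc7a1, also at 50 or more on all arrays, had values of 0.18 (adjusted p = 0.831) and 0.66 (adjusted p = 0.418). Its DEX + TE and control arrays overlapped, at 255.0 and 276.7. A further one, under 50 on some arrays, had 1.74 (SE 1.08) and 1.80 (SE 1.08). Slc7a2 (CAT2) was at 1954, 1439 and 2048 on the control arrays, 2747, 1484 and 1380 on the DEX arrays, and 1746, 1849 and 1215 on the DEX + TE arrays, with overlapping groups and a log2 fold change of -0.01 (95% interval -0.72 to 0.70) for DEX against control. Slc7a7, the light chain y+LAT1 that exports arginine and lysine and is named here after its values were seen, had a mean signal of 46.51 ± 11.9 in control and 102.4 ± 44.1 in DEX mice (SD, n = 3), with a log2 fold change of 1.06 (SE 0.39, adjusted p = 0.277) and overlapping groups.

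Of the neutral amino acid carriers of the Slc1a family, Slc1a5 (ASCT2), a glutamine exchanger, was at 122.1, 153.3 and 226.5 on the control arrays, 171.3, 308.1 and 208.7 on the DEX arrays, and 225.4, 335.5 and 367.6 on the DEX + TE arrays. The DEX + TE arrays overlapped with the control arrays only at 225.4 and 226.5, and the log2 fold change was 0.46 (adjusted p = 0.553) for DEX against control and 0.90 (95% interval 0.16 to 1.65, adjusted p = 0.287) for DEX + TE against control. Slc1a4 (ASCT1), which exchanges alanine, serine and cysteine, was at 88.67, 104.8 and 91.9 on the control arrays, 95.69, 7.724 and 78.52 on the DEX arrays, and 51.21, 111.8 and 50.8 on the DEX + TE arrays. The log2 fold change of -1.29 (adjusted p = 0.556) for DEX against control rested on DEX replicate 2, and without that array it was -0.13 (adjusted p = 0.920).

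The glutamate carriers Slc1a2, Slc1a3 and Slc1a7 had signals below 50 on some arrays. Slc1a3 (GLAST) was at 67.76, 40.59 and 16.56 on the control arrays, 78.92, 54.4 and 39.58 on the DEX arrays, and 43.6, 105.2 and 81.75 on the DEX + TE arrays, with overlapping groups. Slc1a2 (GLT-1) was below 50 on every control and DEX array, with group means of 23.08 ± 22.9 and 41.52 ± 4.12 (SD, n = 3). In the DEX + TE group, through which alone it entered the test, it was at 104.1, 58.87 and 92.73. That level is at least 1.66-fold that of a signal of 50. The fitted log2 fold changes were 2.43 against control (adjusted p = 0.231) and 1.00 against DEX (adjusted p = 0.784). The other tested probe set of Slc1a2 went the opposite way and is given with the probe sets. Slc1a7 (EAAT5), a glutamate carrier of the retina, was at 17.98, 43.35 and 85.52 on the control arrays, 43.73, 40.25 and 77.92 on the DEX arrays, and 11.43, 17.44 and 20.21 on the DEX + TE arrays. All DEX + TE arrays were below 50, and the DEX group was at least 1.03-fold higher than that. The fitted log2 fold change of DEX + TE against DEX was -1.70 (adjusted p = 0.562).

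The remaining named carriers overlapped between the control and DEX groups. Slc36a1 (PAT1), which carries small amino acids with protons out of the lysosome, was at 142.8, 178.1 and 204.3 on the control arrays, 189.9, 171.3 and 172.6 on the DEX arrays, and 134.6, 205.8 and 138.5 on the DEX + TE arrays. Its log2 fold change was 0.04 (95% interval -0.43 to 0.51) for DEX against control. Slc43a1 (LAT3), which lets leucine and other large neutral amino acids through, was at 547.1, 386.0 and 405.4 on the control arrays, 652.1, 456.7 and 447.7 on the DEX arrays, and 463.2, 534.2 and 551.7 on the DEX + TE arrays. The value was 0.21 (95% interval -0.25 to 0.68). Slc43a2 (LAT4), of the same function, was at 448.8, 323.3 and 455.9 on the control arrays, 456.7, 382.3 and 320.5 on the DEX arrays, and 234.9, 328.3 and 309.5 on the DEX + TE arrays, and the DEX + TE group had a log2 fold change of -0.49 against control (adjusted p = 0.361) and -0.41 against DEX (adjusted p = 0.697).

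The comparison of DEX + TE with DEX asks which transporters differ when the injected mice also eat the extract. It shares the DEX arrays with the comparison of DEX with control, so the values of these comparisons are not independent. A low value on a DEX array lowers the fold change there and raises it here. Slc36a3, a member of the proton-coupled family, had the lowest p-value among the members. Its signal was 95.65, 107.4 and 104.9 on the control arrays, 98.88, 128.1 and 96.89 on the DEX arrays, and 194.6, 155.4 and 192.0 on the DEX + TE arrays. The 3 DEX + TE arrays lay above all 6 others, while the control and DEX arrays overlapped. The difference was 1.68-fold against DEX, with a log2 fold change of 0.75 (SE 0.15, 95% interval 0.40 to 1.10, adjusted p = 0.349), and 1.75-fold against control, with a log2 fold change of 0.81 (SE 0.15, adjusted p = 0.0909). With only probe sets of a group mean of at least 100 tested, the comparison with control passed the threshold at an adjusted p of 0.0456, and over all settings the adjusted p ran from 0.0456 to 0.248. Centring the arrays on their medians, which were higher in the DEX + TE group, brought the log2 fold change to 0.49 against DEX, under the threshold of 0.6, and to 0.66 against control. Slc36a3 has 1 probe set on the array.

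Slc36a2 (PAT2), which carries glycine, alanine and proline with protons, was at 94.55, 58.71 and 138.7 on the control arrays, 82.7, 81.2 and 75.7 on the DEX arrays, and 158.0, 87.3 and 137.9 on the DEX + TE arrays. The DEX + TE arrays lay above the DEX arrays and overlapped with the control arrays, and the log2 fold change was 0.63 (adjusted p = 0.700). Slc7a10, an exchanger of small neutral amino acids named after its values were seen, had means of 79.58 ± 21.4, 77.3 ± 26.0 and 131.4 ± 31.9 in the control, DEX and DEX + TE groups (SD, n = 3) and a log2 fold change of 0.79 against DEX (adjusted p = 0.620). Its DEX and DEX + TE arrays overlapped.

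In this comparison an unadjusted p under 0.05 was met by 4 members that were higher and 1 that was lower, which is 11.1% and 2.78% of the members, against 6.2% and 1.56% of all probe sets. The lower one, Slc1a7, entered the test through the DEX group alone. Limma called 0.0137% of all probe sets and Rank Product 0.171%. The groups did not overlap in 4 higher members (11.1%) and 2 lower members (5.56%), with 10.1% and 4.75% among all probe sets. Among the 26 members at 50 or more on all arrays, this held for 3 higher and 1 lower. The median log2 fold change was 0.09 over the members and 0.05 over all probe sets. This direction depended on the scaling, as centring the arrays on their medians moved the median of all probe sets by -0.25 and that of the members to -0.16, and the members stayed 0.04 above all probe sets on either scale.

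For DEX + TE against control, 6 higher and 4 lower members had an unadjusted p under 0.05, or 16.7% and 11.1%, against 7.95% and 5.84% of all probe sets. Among the 26 members at 50 or more on all arrays, 4 were higher and 3 lower. Limma called 0.379% of all probe sets and Rank Product 0.437%. In 7 higher members (19.4%) and 3 lower members (8.33%) the groups did not overlap, and the shares of all probe sets were 12.4% and 10.3%. Of the higher ones, Slc7a11 and Slc1a2 entered the test through the DEX + TE group alone, and Slc7a7 through the DEX-injected groups. Among the 26 members at 50 or more on all arrays, the groups did not overlap in 4 higher and 3 lower. The median log2 fold change of the members was 0.18 and that of all probe sets 0.05, and centring on array medians moved the latter by -0.15 and the former to 0.03.

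Different probe sets of a gene did not always move together. Of the 89 probe sets of the members, 65 were tested, and 15 members had further tested probe sets, 29 in all. The sign of the log2 fold change was that of the chosen probe set in 21 of 29 for DEX against control, in 17 of 29 for DEX + TE against DEX and in 17 of 29 for DEX + TE against control. Limma called none of the 29 in any of these comparisons, and Rank Product called 1 in each. They were the second probe set of Slc7a13 for DEX against control, at 62.87, 51.97 and 109.8 on control arrays and 6.336, 10.59 and 14.85 on DEX arrays, while its chosen probe set had a log2 fold change of -0.16 (adjusted p = 0.903). For both comparisons of DEX + TE it was the second probe set of Slc1a2, at 40.15, 73.79 and 59.58 on the control arrays, 114.3, 89.44 and 49.81 on the DEX arrays, and 49.98, 3.877 and 7.006 on the DEX + TE arrays. Slc7a13 and these probe sets were named after their values were seen. Slc7a8, Slc43a3, Slc7a11 and Slc36a3 have no second tested probe set, so their values rest on 1 probe set each.

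**Figure D3:**
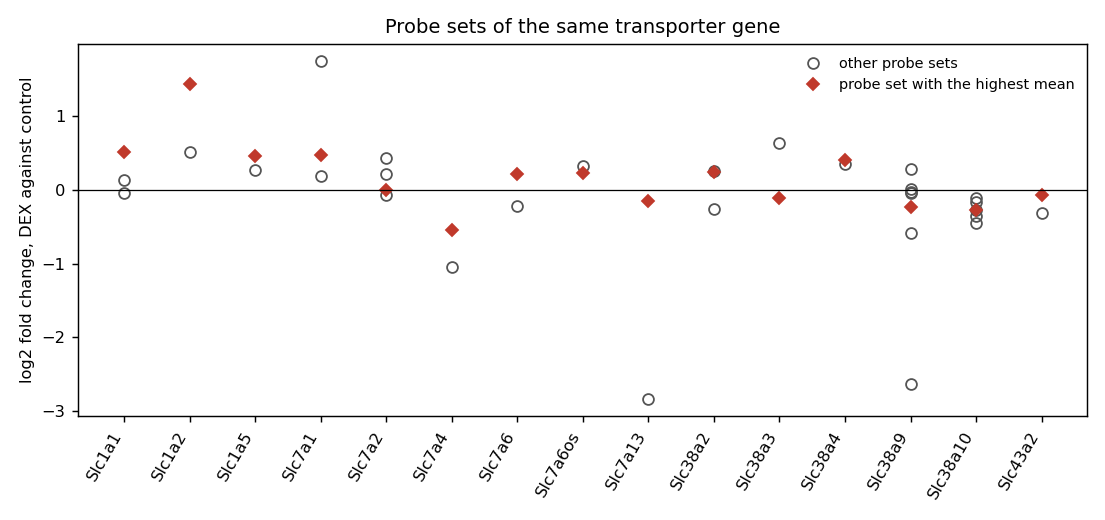
Log2 fold change of DEX against control for the 15 genes with more than 1 tested probe set, with the chosen probe set as a filled diamond and the others as open circles. The probe sets of Slc38a10 lie close together, while those of Slc38a9 run from -2.63 to 0.28 and those of Slc7a13 differ in size.

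Other genes of amino acid transport and use were taken from 4 lists of genes with known functions. Of 12 tested transporters outside these families, of amino acids and peptides, none passed limma in any comparison, and Rank Product called 1, Slc6a20b, as lower for DEX against control. In that comparison Rank Product called 0.325% of all probe sets. Slc6a20b had the lowest adjusted p among them, with a mean signal of 84.75 on control, 13.24 on DEX and 84.6 on DEX + TE arrays. Its adjusted p was 0.0835 for DEX against control and 0.270 for DEX + TE against DEX. Every DEX array was below 50, so that, counted from 50, the DEX group was at least 1.57-fold lower than control and the DEX + TE group at least 1.68-fold higher than DEX. With DEX against control, an unadjusted p under 0.05 was found for 2 of the 12 on the higher side and 1 on the lower side. The shares of all probe sets tested were 6.1% and 8.33%. Those on the higher side were Slc15a4 and Slc16a10. Slc15a4 had means of 508.6 ± 37.4, 987.3 ± 296 and 773.1 ± 67.3 in the control, DEX and DEX + TE groups (SD, n = 3). Its log2 fold change against control was 0.92 (adjusted p = 0.11) with DEX and 0.60 (adjusted p = 0.266) with DEX + TE. Slc16a10 (TAT1), which carries aromatic amino acids, had means of 800.8 ± 98.9, 1162 ± 204 and 1247 ± 36.4 in the same order. Its log2 fold change against control was 0.53 (adjusted p = 0.185) with DEX and 0.65 (adjusted p = 0.152) with DEX + TE.

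Limma and Rank Product differed for 23 tested genes of the amino acid response, which the transcription factor ATF4 drives during amino acid shortage. With DEX against control, limma called 1 as higher and 1 as lower, where it called 0.502% of all probe sets. Rank Product called 0 as higher and 1 as lower, where it called 0.325% of all probe sets. Mthfd2, a mitochondrial enzyme of folate metabolism that limma alone called, rose from a mean of 150.5 to one of 297. Its log2 fold change was 0.98 (SE 0.12, adjusted p = 0.0259). Ddit4 (Redd1), an inhibitor of mTORC1, fell from 4638 ± 439 to 319.9 ± 66.3, a log2 fold change of -3.87 (SE 0.26, adjusted p = 0.00338), and in the DEX + TE group it was at 279.6 ± 91.3. At an unadjusted p under 0.05, 4 genes of the list lay on the higher and 4 on the lower side. Over all probe sets tested, 6.1% were higher and 8.33% lower at that p, and the list itself was not tested. Among those that did not pass limma, the transcription factor Cebpb had the lowest adjusted p, 0.0585, with a log2 fold change of -0.69. Eif4ebp1, which holds back translation, had a log2 fold change of 0.87 (adjusted p = 0.0699). Atf3, a stress-induced transcription factor, had one of 2.00 (adjusted p = 0.136). The groups of all these genes did not overlap. By value, 5 of the 23 (21.7%) were higher and 18 lower, where 46.8% of all probe sets were higher. The median of the list was -0.12. Asns, which makes asparagine and is a standard readout of this response, had a log2 fold change of -0.07 (adjusted p = 0.925), and Atf4 one of 0.18 (adjusted p = 0.612). For DEX + TE against control, limma called Ddit4 and Cebpb as lower, by 4.10 and 0.95 on the log2 scale. Their adjusted p values were 0.00261 and 0.0282, and limma called 0.379% of all probe sets. Rank Product called 1 gene of the list as lower there, and 0.437% of all probe sets.

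Of 21 tested genes of amino acid breakdown and synthesis, limma called 1 as higher for DEX against control and 0 as lower. Rank Product called 0 of them in each comparison. For DEX against control, limma called 0.502% and Rank Product 0.325% of all probe sets. Cdo1, cysteine dioxygenase, which breaks cysteine down, rose from 71.15 ± 1.64 to 219.6 ± 54.4 with DEX (SD, n = 3) and was at 364.9 ± 68.0 with DEX + TE. Its log2 fold change was 1.60 (SE 0.20, adjusted p = 0.0277) for DEX against control and 2.34 (SE 0.20, adjusted p = 0.00686) for DEX + TE against control. The adipocyte marker sums given above had the same order of groups, and their part in this change was not tested. Glul, glutamine synthetase, had a log2 fold change of -0.57 (adjusted p = 0.339), and the median of the list was -0.05. Of 32 tested genes of amino acid sensing upstream of mTORC1, limma and Rank Product called 0 in each comparison. An unadjusted p under 0.05 on the lower side was seen in 1 for DEX against control and in 3 for DEX + TE against control. In these comparisons 8.33% and 5.84% of all probe sets were lower at that p. The medians were -0.01, -0.03 and -0.04 for DEX against control, DEX + TE against DEX and DEX + TE against control.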

How the data were processed

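Values were analysed for 9 Affymetrix GeneChip arrays, each from 250 ng RNA of tibialis anterior, with groups taken from the sample labels. The authors deposited linear intensities, 1 for each of 45101 probe sets and array, scaled to a mean of 500 with 2% trimmed at each end. They are not the log2 output of Robust Multi-array Average that the methods name, and the sources used here do not give the program that made them. The 64 control probe sets were left out, and 34945 probe sets had 1 symbol, 932 several and 9160 none. Intensities were converted to log2 without an offset. Where the mean log2 intensity of a group reached that of 50, as held for 29269 probe sets, all arrays entered 1 fit of 3 group means in limma 3.58.1 (R 4.3.3), with lmFit, eBayes and Benjamini-Hochberg adjustment over all of them. Calls followed the limits in the methods: an adjusted p under 0.05, and 0.6 on the log2 scale in either direction. Rank Product used 100 permutations in Python 3.11.15. Scripts were tested on simulated data. Named genes were members with well known roles and those with the highest and lowest fold changes among groups that did not overlap. The members and lists were chosen with earlier results of these data known. Intensity over background and the number of arrays limit the precision. All 42 symbols were unchanged in RefSeq. Motifs were searched in RefSeq sequences of GRCm38.p6. The alternatives were other normalizations, filters, an offset of 16, a variance trend, the 6 arrays compared alone, a replicate block, averaged probe sets and each array left out.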

Additional observations from a re-analysis of the deposited data

How the results depend on the processing

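The count of transporter genes past the test stayed at 0 under most settings. With a mean-variance trend it was 2 for DEX against control, Slc7a8 and Slc43a3 (563 of all probe sets called), and 1 for DEX + TE against control, Slc43a3 (409 called). With only probe sets of a group mean of at least 100 it was 1 for DEX + TE against control, Slc36a3 (222 called). The causes were not tested. Leaving out each array in turn gave 0 to 0 in every comparison. The log2 fold change of Slc38a6 for DEX against control turned from -0.43 to 0.23 when its probe sets were averaged, 1 of which lay under 50 in every group mean. Of 1398 values of the 25 named genes under alternatives, 4 were called and 68 had another sign, of which 1 had an unadjusted p under 0.05 on either side. The median of the members ran from 0.04 to 0.24, from -0.16 to 0.16 and from 0.02 to 0.22 for DEX against control, DEX + TE against DEX and DEX + TE against control.

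The labels give the groups the same replicate numbers. Deviations of arrays with the same number correlated between -0.0205 and 0.0482, and those with different numbers between -0.0396 and 0.0424. Pairs of replicate 3 had 0.0239, 0.0482 and 0.0417. The main fit used no pairing, and a factor shared by arrays of the same number was not tested. With the replicate number as a block (replicate block) 0 members were called in each comparison, and the median log2 fold changes were 0.14, 0.09 and 0.18. Few arrays and signals near 50 limit what could be called: 10 of the 36 tested members were below 50 on at least 1 array, and the 95% interval lay within 1 of 0 on the log2 scale in 19 of 36 members for DEX against control and 17 of 36 for DEX + TE against DEX.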
